A study of Mus musculus with 12 samples.

Results

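The genes of the mitochondrial respiratory chain were taken as the genes whose symbol starts with Nduf (complex I), Sdh (complex II), Uqcr (complex III), Cox4 to Cox8 (complex IV) or Atp5 (complex V), through probe sets annotated to 1 gene. This gave 94 of the 18193 genes on the array that had such a probe set. They were carried by 185 probe sets, and each gene was represented by its brightest probe set, judged on the average of the 6 arrays. Of the 94, 81 encode subunits and 13 encode assembly factors that share the prefix: 8 Ndufaf genes, 4 Sdhaf genes and Cox7a2l. The 94 genes split into 44 for complex I, 8 for complex II, 8 for complex III, 17 for complex IV and 17 for complex V. Ndufa4 is counted with complex I by its symbol, although its product is known as a subunit of complex IV.

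RNA came from mouse erythroleukemia (MEL) cells, a leukemia line of the red cell lineage. There were 3 arrays of cells with knockdown of G9a and 3 arrays of wild type cells. Ehmt2 encodes G9a, an enzyme that methylates histone H3. Both groups carry the same protocol text: culture with 2% dimethyl sulfoxide (DMSO) for 4 days, which drives these cells toward red cell maturation, and doxycycline at 5 µg/ml as the inducer of the knockdown. Whether wild type cells also received doxycycline, which knockdown construct was used and whether the cells were 1 clone are not stated in the labels. Replicates are numbered 1 to 3 in each group, but no label calls them separate cultures. A p-value here therefore reflects array-to-array spread that could be purely technical.

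The respiratory chain sits in the inner mitochondrial membrane. Complexes I and II pass electrons from NADH and succinate to ubiquinone, complex III passes them on to cytochrome c, and complex IV passes them to oxygen. The proton gradient that complexes I, III and IV build drives complex V, the ATP synthase. Complex I is the largest of these enzymes, with a conserved core, most of whose nuclear-encoded subunits carry the flavin or iron-sulfur centres, and many accessory subunits around it. Maturing red cells need mitochondria for heme synthesis and later discard them. The subunits encoded by mitochondrial DNA do not carry these symbols and are not among the 94.

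All levels are GCRMA values on the log2 scale as deposited, and differences are knockdown minus wild type from limma, with the replicate number as a block. Testing required a level over log2 4 on 3 or more of the 6 arrays. On both of its probe sets Ehmt2 was lower in every knockdown array, at 4.29, 4.28 and 4.16 against 7.43, 7.07 and 6.82 in wild type on the first, with differences of −2.86 and −2.87. These were 2 of 2 calls among 17028 tested probe sets (limma adjusted p = 0.0278 and 0.0316). Of 13 erythroid markers with a probe set, 12 passed the filter, whereas 3 of 13 myeloid, 2 of 7 megakaryocyte, 0 of 8 lymphoid and 1 of 8 fibroblast and endothelial markers did. The summed signal of the megakaryocyte markers ran from 11.05 to 11.67 in knockdown arrays and from 11.86 to 12.17 in wild type arrays (log2), and its part in the differences given here was not tested. In bulk RNA a smaller number of cells of a type and less RNA per cell cannot be told apart.

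Nearly all respiratory chain genes were measured well above the filter, and those that were not were mostly isoforms of complex IV known from other tissues. The filter was passed by 42 of 44 genes of complex I, 8 of 8 of complex II, 8 of 8 of complex III, 10 of 17 of complex IV and 17 of 17 of complex V, or 85 of 94 in all. Means over the 6 arrays lay between 5.29 and 14.07 in complex I, 7.92 and 11.93 in complex II, 10.38 and 14.57 in complex III, 10.96 and 14.84 in complex IV, and 10.66 and 15.35 in complex V. Of the 94 genes, 75 lay above the 90th percentile of all probe sets. That reference was not reduced to the brightest probe set of each gene, so part of the high rank follows from how the genes were represented. On the brightest probe set of each gene, 9025 of all 18193 genes passed the filter. A level on an array also depends on the probe sequences, so these ranges do not rank the genes by amount of RNA. The 13 assembly factors lay between 5.89 and 12.08, and all passed.

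**Figure D1:**
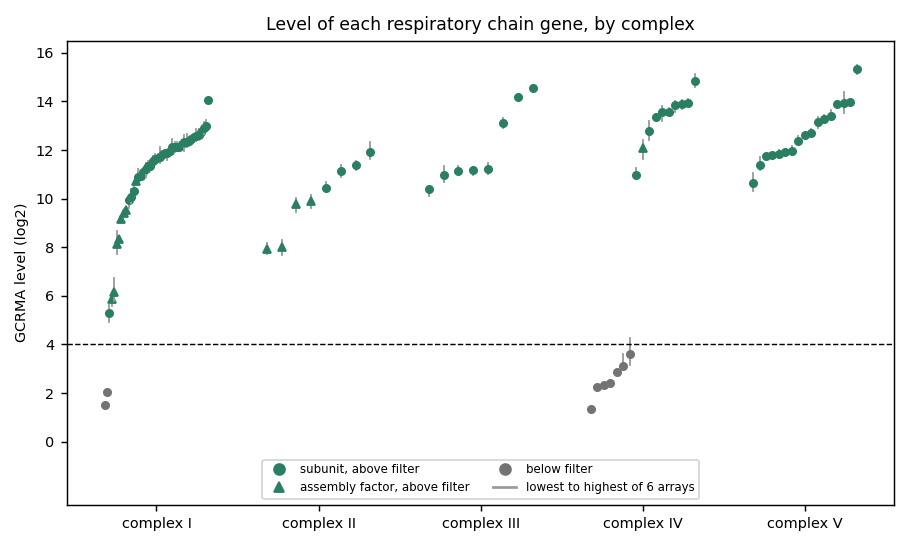
Mean GCRMA level (log2, vertical axis) of each of the 94 genes over the 6 arrays, sorted within complexes I to V. Circles are subunits, triangles assembly factors, grey circles genes below the filter (dashed line at log2 4), and bars run from the lowest to the highest array. The 9 grey points lie in complexes I and IV, and no gene of complexes II, III and V is below the line.

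The 9 genes below the filter were Cox4i2, Cox6a2, Cox7a1, Cox7b2, Cox7c, Cox8b, Cox8c, Ndufa4l2 and Ndufb4, with means of 1.35 to 3.59. The medians of the arrays over all probe sets were 2.99 to 3.10. Cox6a2, Cox7a1 and Cox8b encode the heart and muscle forms of their subunits, Cox4i2 a form known from lung, and Cox7b2 and Cox8c forms known from testis. Cox6a2 read 2.32, 2.30 and 2.33 in knockdown arrays and 2.31, 2.34 and 2.35 in wild type arrays. Cox7a1 read 2.85, 2.79 and 2.83 in knockdown arrays and 2.82, 2.84 and 2.96 in wild type arrays. Neither gene left the floor in any array of either group. Cox8b reached 3.62 in knockdown replicate 2 and read 2.99 and 2.97 in the other knockdown arrays, against 2.94, 2.99 and 3.08 in wild type arrays. Cox7c and Ndufb4 encode subunits that are not known to be tissue-restricted. Cox7c read 3.18, 3.85 and 3.21 in knockdown arrays and 3.16, 4.25 and 3.87 in wild type arrays, so 1 of the 6 arrays was above log2 4. Its second probe set averaged 3.50. Signal at the floor of a probe set does not show that the RNA is absent. Another 10 probe sets name several genes, at least 1 of which fits the symbol rule, and cannot be assigned to 1 of them. Of these, 2 name Ndufb4 together with Ndufb4b and Ndufb4c and averaged 11.18 and 10.39, so the floor value of Ndufb4 holds for its own probe set only. The 6 of the 10 that passed the filter differed by −0.31 to −0.097.

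The general forms of these families that were among the 94 genes (Cox4i1, Cox6a1, Cox7a2, Cox8a and Ndufa4) were all above the filter. Cox7b, the general partner of Cox7b2, was not analysed here. Cox4i1 read 13.71, 13.43 and 13.47 in knockdown arrays and 13.74, 13.44 and 13.52 in wild type arrays. Cox7a2 read 13.49, 13.25 and 13.20 in knockdown arrays, against 13.46, 13.40 and 13.24 in wild type arrays. Cox8a read 10.998, 10.89 and 10.87 in knockdown arrays, against 11.25, 10.95 and 10.82 in wild type arrays. For Cox4i1, Cox7a2 and Cox8a the groups overlapped, and the 95% intervals of their differences were −0.26 to 0.20, −0.29 to 0.19 and −0.36 to 0.18. Cox6b2, known as the testis form of subunit 6b, went against this pattern. Its single probe set read 12.41, 13.15 and 12.52 in knockdown arrays and 12.64, 13.19 and 12.84 in wild type arrays. Replicate 2 was the highest array in both groups, and the groups overlapped. The general form Cox6b1 read 14.08, 13.91 and 13.80 in knockdown arrays and 13.96, 14.10 and 13.85 in wild type arrays.

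**Figure D2:**
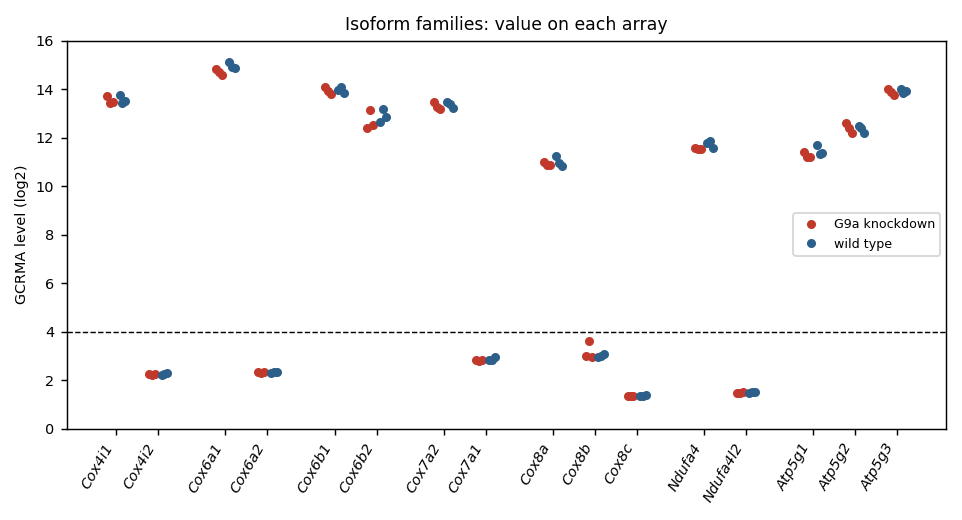
GCRMA level (log2, vertical axis) on each array for 7 isoform families of complexes IV, I and V, with G9a knockdown arrays in red at the left of each gene and wild type arrays in blue at the right, replicates 1 to 3 in that order. The dashed line is the filter at log2 4. Cox6b2 and all 3 Atp5g genes lie above the line together with their family members, whereas Cox4i2, Cox6a2, Cox7a1, Cox8b, Cox8c and Ndufa4l2 stay below it in all 6 arrays.

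Promoters of 3 general and tissue-restricted pairs are shown, chosen because both promoters are in the table: in the Cox7a and Cox8 pairs the restricted form was below the filter, and in the Cox6b pair it was not. They are the 250 bases before the RefSeq transcript start (GRCm38.p6), with each CG dinucleotide in capitals. The minus strand carries Cox7a2 at chr9:79759854-79760103, Cox8a at chr19:7217617-7217866, Cox8b at chr7:140900447-140900696, Cox6b1 at chr7:30626115-30626364 and Cox6b2 at chr7:4753095-4753344, and the plus strand carries Cox7a1 at chr7:30183921-30184170.
Cox7a1: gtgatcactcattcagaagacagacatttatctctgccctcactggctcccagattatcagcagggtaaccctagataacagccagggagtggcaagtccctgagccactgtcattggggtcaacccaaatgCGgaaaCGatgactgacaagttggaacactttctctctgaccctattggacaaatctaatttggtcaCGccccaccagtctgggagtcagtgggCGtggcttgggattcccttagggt
Cox7a2: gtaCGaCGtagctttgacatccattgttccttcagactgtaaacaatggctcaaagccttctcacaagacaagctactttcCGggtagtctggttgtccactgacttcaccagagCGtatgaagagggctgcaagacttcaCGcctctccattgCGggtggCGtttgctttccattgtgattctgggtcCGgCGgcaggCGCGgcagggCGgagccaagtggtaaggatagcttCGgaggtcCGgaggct
Cox8b: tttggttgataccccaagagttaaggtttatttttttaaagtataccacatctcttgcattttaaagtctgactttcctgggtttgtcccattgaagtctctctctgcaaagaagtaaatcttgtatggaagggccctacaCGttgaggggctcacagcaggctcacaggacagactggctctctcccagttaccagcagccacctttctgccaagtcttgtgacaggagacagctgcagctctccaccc
Cox8a: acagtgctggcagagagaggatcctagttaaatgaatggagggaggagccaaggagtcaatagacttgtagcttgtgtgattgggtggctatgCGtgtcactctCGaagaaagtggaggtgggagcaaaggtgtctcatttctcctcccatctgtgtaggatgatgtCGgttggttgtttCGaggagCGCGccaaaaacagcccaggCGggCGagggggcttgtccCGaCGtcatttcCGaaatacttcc
Cox6b2: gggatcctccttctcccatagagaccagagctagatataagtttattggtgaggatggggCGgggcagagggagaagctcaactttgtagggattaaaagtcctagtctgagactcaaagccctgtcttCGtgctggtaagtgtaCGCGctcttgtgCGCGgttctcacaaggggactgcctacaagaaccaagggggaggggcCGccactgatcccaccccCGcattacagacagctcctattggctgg
Cox6b1: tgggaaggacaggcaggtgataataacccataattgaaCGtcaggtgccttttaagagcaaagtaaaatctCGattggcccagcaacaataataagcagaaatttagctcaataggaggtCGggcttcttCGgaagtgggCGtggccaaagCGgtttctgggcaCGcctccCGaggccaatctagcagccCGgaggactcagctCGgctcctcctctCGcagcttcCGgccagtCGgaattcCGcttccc
Cox7a1 has 4 CG in this window and Cox7a2 14. Cox8b has 1 and Cox8a 11. Cox6b2, the tissue-restricted form that was measured, has 8 and Cox6b1 14. The whole entries reach 50 bases past the start. Counted over these, the 73 tested genes with a promoter in the table had a median of 20 CG (8 to 44). The 5 genes below the filter with one had a median of 10 (2 to 23). Those 5 include Cox7c and Ndufb4, not known to be tissue-restricted, at 14 and 23. The median over the 7469 genes with a tested probe set and a promoter was 23. These counts describe the sequence and bear on no methylation, which was not measured.

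Motifs of factors known to control nuclear genes of the respiratory chain were searched on both strands of the entries, which run from 250 bases before the start to 50 after it. The NRF1 motif was searched with 1 free base in the middle, and 18 of the 73 tested genes with a promoter held it, or 24.7%, against 13.6% of the 7469 genes with a tested probe set and 5.19% of all 27025 genes in the table. It was in 4 of 7 genes of complex II, 6 of 15 of complex V, 6 of 38 of complex I, 1 of 5 of complex III and 1 of 8 of complex IV. The ETS core CCGGAAG was held by 22 of the 73 tested genes (30.1%, against 23.5%) and the YY1 motif AAGATGGCG by 7 (9.59%, against 4.43%). Only 2 of the 73 held the estrogen-related receptor motif TCAAGGTCA (2.74%, against 0.335%). The motifs do not contain one another, and a match of letters shows no binding. Sdha held 3 NRF1 matches. Among the 18 genes, 6 held the form that reads alike on both strands, and the other 12 held other forms. The 4 of the 6 whose 30-base window lies wholly before the start are shown, the motif in capitals, as examples of a match. Most of the 73 promoters held none. They lie at chr15:102671070-102671099, chr5:108434430-108434459 and chr5:115349101-115349130 on the minus strand and at chr4:24897960-24897989 on the plus strand, in the order given.
Atp5g2: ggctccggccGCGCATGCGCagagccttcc
Atp5k: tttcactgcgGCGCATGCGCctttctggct
Cox6a1: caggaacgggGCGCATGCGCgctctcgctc
Ndufaf4: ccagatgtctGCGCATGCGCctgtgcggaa

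No respiratory chain gene passed the threshold between knockdown and wild type. Of the 85 tested, 0 had a limma adjusted p under 0.05 (smallest 0.307), where 0.0117% of all tested probe sets did. At an unadjusted p under 0.05 there were 5 (5.88%), against 13.7% of all tested probe sets, a smaller share than over the array with this filter. With no filter on dim probe sets the count was 26 of 94 (27.7%, against 8.62% of all 45037 probe sets). Only 17028 of those 45037 had passed the filter, whereas 85 of the 94 genes had, so these shares are not a like comparison. With no block the count was 2 (2.35%, against 5.87% of all), and 0 genes passed after adjustment, where 0.00587% of all did. By direction, the 5 genes found with the block were 4 lower (4.71%, against 7.24% of all) and 1 higher (1.18%, against 6.44%). The intervals were narrow: for 78 of 85 genes the 95% interval lay within 1.5-fold in either direction (91.8%, against 75.1% of all tested probe sets). The 7 others were Atp5mpl, Atp5pb, Cox7a2l, Ndufaf3, Ndufaf5, Ndufb1 and Sdhaf1. Narrow intervals were shared with other bright probe sets: above log2 10, where 72 of the 94 genes lay, 3253 of 3662 tested probe sets were within that bound.

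Small negative differences were nonetheless the rule. The difference was negative for 68 of 85 genes, or 80%, against 51.7% of all tested probe sets, and the median was −0.082 against −0.0083. On centring the arrays 68 were negative, on quantile normalization 66, and in MAS5, the second deposited summary, 49 (57.6%, against 47.9% of all). The median over the 85 genes was −0.10, −0.077 and −0.066 within pairs 1, 2 and 3. All 3 pairs were lower in the knockdown for 37 genes (43.5%, against 20.6% of all) and higher for 6 (7.06%, against 17.3%). On the representative probe sets, groups did not overlap for 15 genes, all of them lower in the knockdown (17.6%, against 7.33% of all for that direction). On these, 0 genes were wholly higher (against 5.04%), although both other tested probe sets of Cox7a2l were. Of 76 mitochondrial ribosome genes, 13 were likewise wholly lower and 0 wholly higher, so this is not particular to the respiratory chain. These counts were not tested as a set. Subunits of 1 enzyme share the same 6 arrays, so the genes are not independent of each other.

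**Figure D3:**
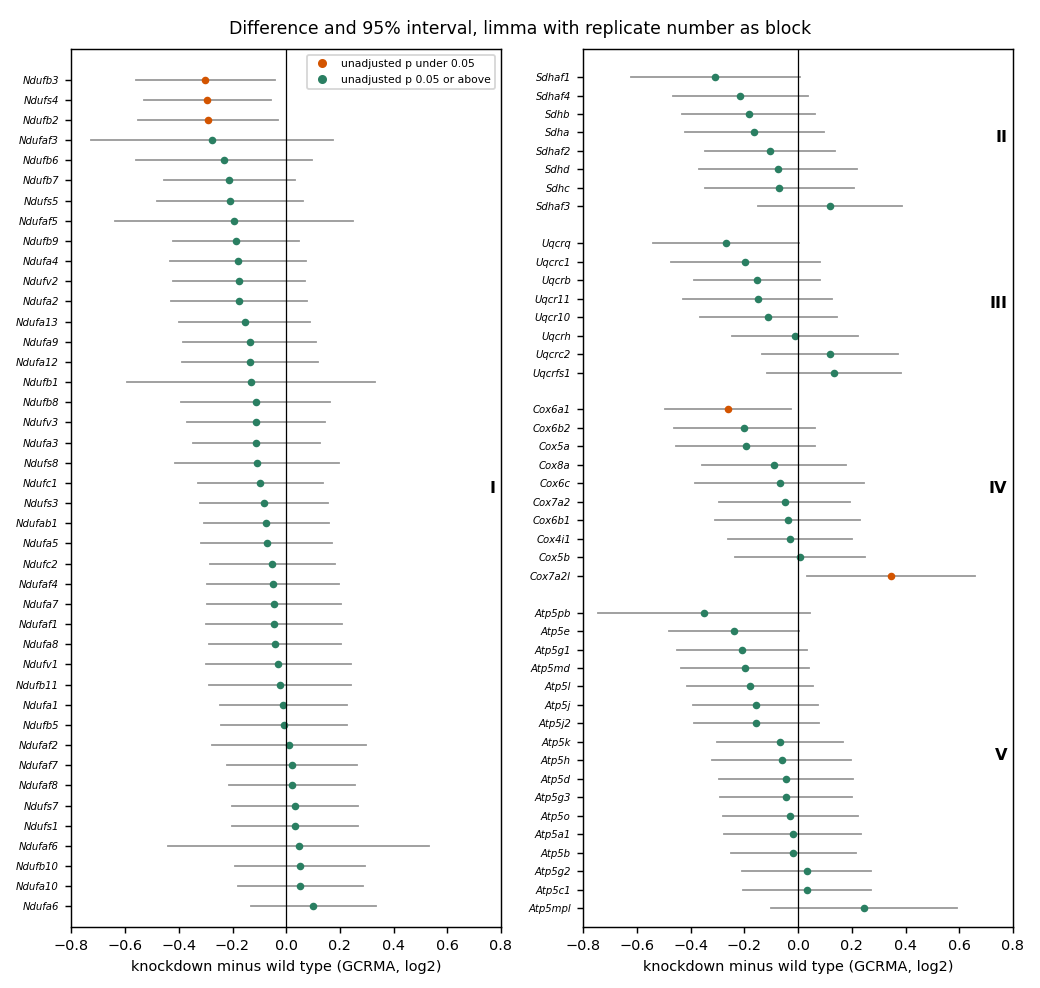
Knockdown minus wild type (GCRMA, log2, horizontal axis) with its 95% interval for the 85 tested genes, complex I in the left panel and complexes II to V in the right, sorted within each complex. Orange points have an unadjusted p under 0.05, which 5 genes did. Most points lie left of 0, and nearly all intervals cross it.

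In complex I, 33 of 42 tested genes were negative, with a median of −0.089 and a range of −0.30 to 0.10. In MAS5, 25 of 42 were negative and the median was −0.060. Ndufs4, an accessory subunit whose loss causes Leigh-like disease in mice, had the lowest p of the 85 genes. It read 10.06, 9.89 and 9.82 in knockdown arrays and 10.39, 10.13 and 10.13 in wild type arrays. Every knockdown array was below every wild type array, and the difference was −0.29 (SE 0.093, limma adjusted p = 0.307), or 81.6% of wild type. Its 2 dimmer tested probe sets differed by −0.27 and −0.21. Ndufb3, an accessory subunit of the membrane arm, read 11.69, 11.57 and 11.45 in knockdown arrays and 12.11, 11.88 and 11.62 in wild type arrays. Groups overlapped, and each knockdown array was below the wild type array of its number. Ndufb2, another membrane arm subunit, read 9.64, 9.86 and 9.84 in knockdown arrays and 10.08, 10.10 and 10.03 in wild type arrays, with no overlap. These differed by −0.30 and −0.29 (limma adjusted p = 0.326 and 0.335). Ndufb7 differed by −0.21 (−0.36 at its other tested probe set), with no overlap. Ndufa4 differed by −0.18, at 11.59, 11.55 and 11.52 in knockdown arrays and 11.76, 11.84 and 11.59 in wild type arrays. Its groups were apart only by 11.5935 in knockdown replicate 1 against 11.5936 in wild type replicate 3.

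Among 6 tested core subunits of complex I, 4 were negative with a median of −0.056, whereas in MAS5 only 2 were negative and the median was 0.019. Among 28 tested accessory subunits, 25 were negative with a median of −0.11, and in MAS5 19 were, with a median of −0.10. The difference between core and accessory subunits was not tested. Ndufs1, the largest core subunit, named after its values were seen, read 11.16, 11.19 and 11.01 in knockdown arrays and 11.17, 11.16 and 10.94 in wild type arrays, and its interval was −0.20 to 0.27. Of the assembly factors of complex I, Ndufaf3 had the lowest p, with 7.998, 8.09 and 7.90 in knockdown arrays and 8.68, 8.42 and 7.72 in wild type arrays. Wild type replicate 3 lay below all 3 knockdown arrays there, and the difference of −0.28 had an SE of 0.18.

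In complex II, the succinate dehydrogenase, all 4 subunits were negative in both summaries, and 0 of the 8 genes reached an unadjusted p under 0.05. The median over the 8 genes was −0.13 in GCRMA and −0.092 in MAS5. Sdha, the flavoprotein, read 11.11, 11.12 and 10.89 in knockdown arrays and 11.37, 11.14 and 11.11 in wild type arrays. Sdhb, the iron-sulfur subunit, read 11.50, 11.18 and 11.26 in knockdown arrays and 11.57, 11.41 and 11.51 in wild type arrays. Both were lower in each knockdown array than in its wild type partner, by −0.26, −0.015 and −0.22 for Sdha and by −0.071, −0.24 and −0.25 for Sdhb. The membrane anchors Sdhc and Sdhd differed by −0.070 and −0.075, and each was negative in 1 of 3 pairs. Sdhd differed by 0.026 at its other tested probe set. Sdhaf1, an assembly factor for the iron-sulfur subunit, read 7.67, 7.97 and 7.98 in knockdown arrays and 8.21, 8.03 and 8.30 in wild type arrays, with no overlap (difference −0.31, 95% interval −0.62 to 0.0066). Sdhaf4 differed by −0.22, and its groups overlapped.

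In complex III, 6 of 8 genes were negative, with a median of −0.13. MAS5 split them evenly, 4 negative and 4 positive, with a median of −0.028, and leaving out arrays moved the GCRMA median between −0.18 and −0.054. Uqcrq, a small subunit, read 11.03, 11.08 and 11.19 in knockdown arrays and 11.46, 11.35 and 11.29 in wild type arrays. There was no overlap, and the difference was −0.27 (SE 0.11, limma adjusted p = 0.370). Uqcrb, also a small subunit, read 14.18, 14.19 and 14.02 in knockdown arrays and 14.32, 14.30 and 14.21 in wild type arrays, again with no overlap, and its difference was −0.15 (GCRMA), with 0.0074 from MAS5. The core protein gene Uqcrc1 differed by −0.20 and Uqcr11 by −0.15, and the groups of both overlapped. Leaving out arrays moved Uqcrc1 between −0.29 and −0.051 (the last without wild type replicate 1) and Uqcr11 between −0.24 and −0.069. The core protein gene Uqcrc2 and the Rieske iron-sulfur protein gene Uqcrfs1 had the opposite sign, at 0.12 and 0.13. These were chosen after their values were seen, as the 2 positive genes of the complex, and both were higher in all 3 pairs.

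In complex IV, 8 of 10 tested genes were negative in GCRMA, with a median of −0.059. The direction turned in MAS5, where 6 of 10 were positive and the median was 0.040. Cox6a1, the general form of subunit 6a, read 14.83, 14.72 and 14.58 in knockdown arrays and 15.12, 14.92 and 14.86 in wild type arrays. Every knockdown array was lower, and the difference was −0.26 (SE 0.094, limma adjusted p = 0.338), with −0.22 at its other probe set. MAS5 gave 0.053 for this probe set, so its sign depended on the summary. Cox5a, which with Cox5b forms part of the nuclear-encoded shell, differed by −0.20 with no overlap, and by −0.19 at both other probe sets. Cox6b2 differed by −0.20, Cox6c by −0.068 and Cox6b1 by −0.039, all with overlapping groups.

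Cox7a2l was the one gene with an unadjusted p under 0.05 in the positive direction. It resembles the Cox7a subunits and is known to act in joining complexes III and IV into supercomplexes. Its representative probe set read 12.42, 12.25 and 12.10 in knockdown arrays and 12.16, 11.63 and 11.93 in wild type arrays. Groups overlapped there, because wild type replicate 1 was above knockdown replicate 3. The difference was 0.35 (SE 0.12, 95% interval 0.033 to 0.66, limma adjusted p = 0.338), or 127% of wild type, and the pairs differed by 0.25, 0.62 and 0.17. Its other tested probe sets differed by 0.35 and 0.46 (limma adjusted p = 0.287 and 0.226). On both of them every knockdown array was above every wild type array. MAS5 gave 0.44 for the representative probe set. These probe sets read the same arrays and are not independent.

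In complex V, 14 of 17 genes were negative in GCRMA, with a median of −0.062. In MAS5, 9 were negative and 8 positive, with a median of −0.020. Atp5e, a subunit of the central stalk, read 11.73, 11.72 and 11.69 in knockdown arrays and 12.02, 12.01 and 11.83 in wild type arrays. There was no overlap, and the difference was −0.24 (SE 0.096, limma adjusted p = 0.369). Atp5pb, the peripheral stalk subunit b, read 14.12, 13.52 and 13.68 in knockdown arrays and 14.14, 13.83 and 14.41 in wild type arrays. Its difference of −0.35 came with pair values of −0.020, −0.30 and −0.73, and without replicate 3 it was −0.16. Atp5md, a small membrane subunit, had a difference of −0.20 (GCRMA), with −0.42 from MAS5. The Atp5g genes encode the same mature subunit c with different import sequences. Atp5g1 read 11.41, 11.20 and 11.20 in knockdown arrays and 11.71, 11.34 and 11.38 in wild type arrays, a difference of −0.21. Atp5g2 and Atp5g3 differed by 0.032 and −0.046, with intervals of −0.21 to 0.27 and −0.29 to 0.20. Differences between the 3 genes were not tested.

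**Figure D4:**
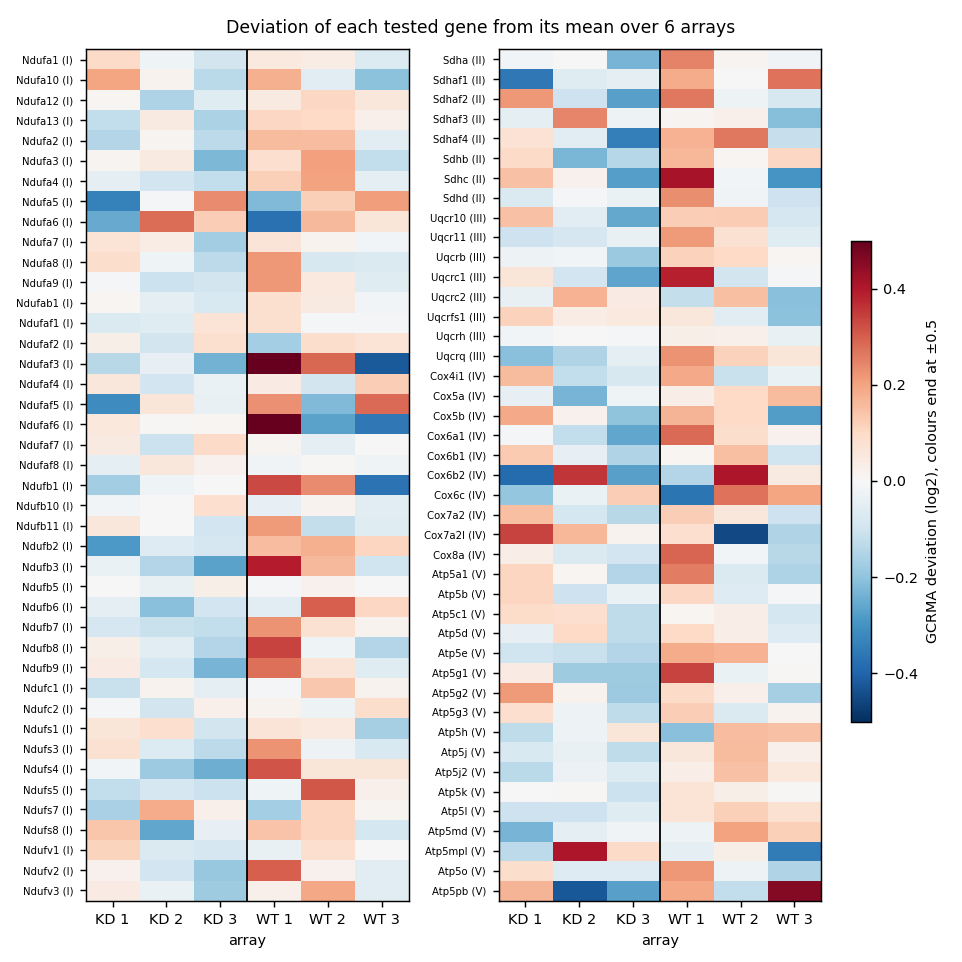
Deviation of each tested gene from its own mean over the 6 arrays (GCRMA, log2, colour scale ending at 0.5 in either direction), with genes in rows, complex I at the left and complexes II to V at the right, knockdown arrays (KD) 1 to 3 in the left columns and wild type arrays (WT) 1 to 3 in the right columns of each panel. Wild type replicate 1 is the array with the most red, and knockdown replicate 3 is mostly blue.

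Across arrays, the median deviation of the 85 genes was −0.0025, −0.040 and −0.094 in knockdown replicates 1 to 3, against 0.10, 0.049 and −0.020 in wild type replicates 1 to 3. Over all tested probe sets it was −0.0078, −0.017 and −0.0024 in knockdown arrays, against 0.052, −0.012 and −0.017 in wild type arrays. Wild type replicate 1 and knockdown replicate 3 were therefore the ends of the range for the respiratory chain. The replicate number took a median of 54.9% of a gene's sum of squares over the arrays, and the knockdown 18.2%, against 53.4% and 13.9% over all tested probe sets. The median residual share was 12.4%, against 19.6%. The replicate number has more degrees of freedom than the knockdown, so the 2 shares cannot be set against each other as sizes of effect. Complex IV had the largest median share by replicate number of the 5 complexes, 74.5%, and the smallest by knockdown, 7.51%.

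Both deposited summaries agreed in sign for 66 of the 85 genes, 49 negative in both and 17 positive in both. The other 19 were negative in GCRMA and positive in MAS5, and 0 were the other way round. Of the 38 genes with a mean above log2 12, 14 split in this way, against 5 of 47 at or below it. The median of MAS5 minus GCRMA differences was 0.073 above log2 12, and 0.078 for all 988 tested probe sets at that level, so the shift was shared with other bright probe sets. By limma on MAS5, 3 genes had an unadjusted p under 0.05, Cox7a2l, Ndufb2 and Uqcrq (3.53%, against 10.6% of all), and 0 passed after adjustment.

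**Figure D5:**
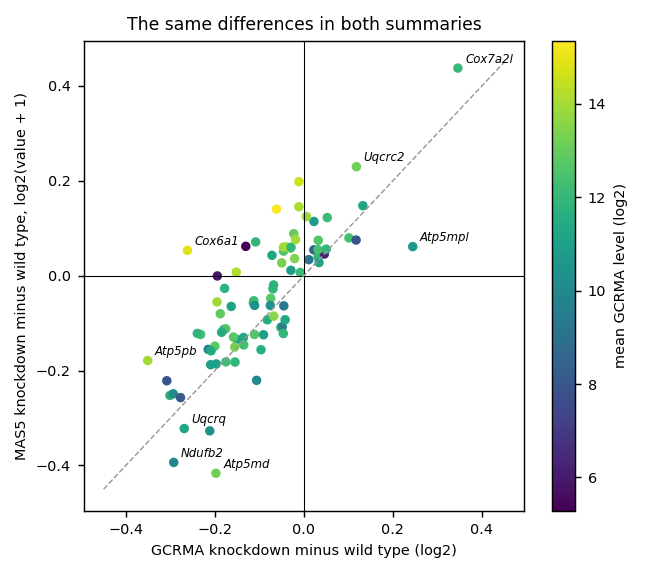
Knockdown minus wild type in MAS5 (log2(value + 1), vertical axis) against GCRMA (log2, horizontal axis) for the 85 tested genes, coloured by mean GCRMA level, with the diagonal dashed. The upper left quadrant holds the 19 genes that were negative in GCRMA and positive in MAS5, most of them bright, and the lower right quadrant is empty.

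Other genes of mitochondrial energy metabolism gave 0 calls as well. Of 76 tested mitochondrial ribosome genes, 60 were negative with a median of −0.072, and 6 had an unadjusted p under 0.05, all lower (7.89%, close to the 7.24% of all tested probe sets). Those with the lowest p were Mrpl54, Mrps34 and Mrpl58, at −0.40, −0.29 and −0.30. Complex IV assembly genes were negative in 11 of 15 (median −0.055), with Surf1 at −0.27, Coa3 at −0.26 and Cox20 at −0.23. In the list of complex III assembly and cytochrome c, 6 of 7 were negative (median −0.15), with Uqcc2 at −0.27, the cytochrome c gene Cycs at −0.21 and Uqcc1 at −0.17. Mitochondrial import genes were negative in 12 of 22 (median −0.037), with Tomm40l at −0.34, Tomm40 at −0.26 and Timm22 at −0.24. Citric acid cycle genes were negative in 7 of 12 (median −0.026), with Suclg1 at −0.15, Idh3g at −0.11 and Dld at −0.12. Regulators of mitochondrial genes were positive in 12 of 14, with a median of 0.12. The MAS5 medians were −0.059 for the ribosome, −0.020 for complex IV assembly, −0.027 for complex III assembly and cytochrome c, −0.00064 for import, −0.0073 for the citric acid cycle and 0.046 for the regulators.

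Among those regulators, Gabpb1 and Gabpa encode the subunits of GABP, an ETS factor known to bind promoters of respiratory chain genes. Gabpb1 read 7.88, 8.09 and 8.17 in knockdown arrays and 7.72, 7.33 and 6.99 in wild type arrays. Its DNA-binding partner Gabpa read 9.48, 9.30 and 9.26 in knockdown arrays and 9.53, 9.62 and 9.82 in wild type arrays. The groups did not overlap for either gene, Gabpb1 being higher in the knockdown and Gabpa lower. Their differences were 0.70 and −0.31 (limma adjusted p = 0.279 and 0.380). Twnk, the mitochondrial DNA helicase, differed by 0.35 (limma adjusted p = 0.323).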

How the data were processed

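Each of 6 Affymetrix arrays was deposited in 2 summaries, MAS5 and GCRMA, per the labels, and the 12 columns were never counted as 12 replicates. The deposited GCRMA columns hold log2 values, and those deposited for MAS5 are linear intensity values whose 2% trimmed means are nearly equal on all arrays. No version or setting of either is given in the sources used here. Gene names came from the platform annotation, and promoter sequences from RefSeq tables of GRCm38.p6, where 78 of the 94 genes matched.

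After 64 control probe sets were left out, 17028 probe sets above log2 4 in at least 3 arrays were tested with limma 3.58.1 in R 4.3.3 (lmFit, eBayes, replicate number as a fixed block, Benjamini-Hochberg over all tested probe sets, threshold 0.05). The pipeline was tested on simulated data with changes planted in 200 probe sets. All planted changes were larger than any difference of the 85 genes, so that test does not bear on differences of their size. MAS5 was tested as log2(value + 1). The block was set along with the rule for the genes, when same-numbered arrays were known from earlier results of these data to deviate together. Deviations of same-numbered arrays from their group means correlated at 0.72, 0.57 and 0.37, and those of other pairs at −0.59 to 0.17. Such deviations cancel out within a group, which by itself pushes the other pairs toward negative values. What a number stands for is not stated. Precision is limited by the 3 arrays a group.

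Named genes were those with the 4 lowest p in each complex, the complex II subunits, the isoform families, the 4 assembly factors with the lowest p and up to 3 genes of each other list with the lowest p. The members and lists were chosen with earlier results of these data known.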

Additional observations from a re-analysis of the deposited data

How the results depend on the processing

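No alternative brought a respiratory chain gene past the threshold: the count of calls was 0 of those tested under all 18 settings run, and the lowest limma adjusted p of a named gene was 0.204. The count at an unadjusted p under 0.05, 5 with the replicate number as a block, was 2 with no replicate block (2.35%, against 5.87% of all tested probe sets) and 3 in MAS5 (3.53%, against 10.6%). It was 8 with the stricter filter at log2 6 (9.64%, against 15.9% of all) and 10 with the mean over a gene's tested probe sets (11.8%, against 15.6% of all). With no filter it was 26 of 94 (27.7%, against 8.62% of all), where the dim probe sets enter both limma's estimate of the spread and the share over all. Leaving out replicates gave 1 to 6. The median difference was −0.055 in MAS5 with either added constant (1 or 16), −0.11 to −0.080 with the block when a replicate number was left out (−0.11 without number 3), and −0.14 to −0.057 with no block when 1 array was left out. The ends of the last range were reached by dropping wild type replicates 3 and 1, and dropping knockdown replicate 1 gave −0.12. It stayed below that of all tested probe sets under all 18. By complex, leaving out arrays gave medians of −0.12 to −0.061 (I), −0.20 to −0.041 (II), −0.18 to −0.054 (III), −0.12 to −0.022 (IV) and −0.10 to −0.031 (V). It moved 24 of the 31 named genes by over 1.5 times in at least 1 case, and not Atp5e, Cox6a1, Ndufa4, Ndufb2, Ndufb7, Ndufs4 and Uqcrq. Of those at an unadjusted p under 0.05, Cox7a2l ranged over 0.21 to 0.47 and Ndufb3 over −0.43 to −0.18. Among these 31, 11 changed sign under at least 1 alternative, in 36 of 558 values; for Cox6a1 and Uqcrb this was in MAS5 only. With the filter at log2 6, 83 of 94 genes were measured, and 85 at the same percentile of MAS5. Signal near the floor limits what can be said of the 9 genes below the filter.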
